A study of Mus musculus with 48 samples.

Results

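Mice of the genotype pL2_Lgr5_Notch1fl_fl carry floxed copies of Notch1 on the pL2 background. Both copies are floxed, and Lgr5-positive cells are those in which they are meant to be recombined. The comparison described here sets these mice against pL2 mice without that change. Its members are 6 of the 48 arrays of the series, 3 in each group, taken from the genotype, facility and diet in the sample labels. pL2 is a mouse model of Barrett oesophagus in which squamous epithelium of the oesophagus and forestomach overproduces interleukin-1 beta from a transgene. All groups compared below carry it, apart from wild-type (WT) mice of 12 months where these are named. The compared groups were kept at the facility called MRI on chow. The exception is 3 pL2 mice of 12 months from a second facility, Freising, also on chow, which serve as another reference. The fit and the ranges over all other arrays also used the remaining groups of the 48 arrays. At MRI on chow these had the genotype labels FXR and pL2_FXR (12 months) and pL2_IL8 (9 or 12 months). At Freising they were mice of 12 months, WT on chow or high fat diet and pL2 on high fat diet.

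Notch1 is one of 4 Notch receptors of the mouse. A ligand on a neighbouring cell (a Jagged or Delta-like protein) exposes the receptor to cleavage by ADAM proteases and gamma-secretase, and the freed intracellular part joins Rbpj and a Mastermind protein on DNA to switch on genes such as those of the Hes and Hey families. In the intestine Notch signalling keeps Lgr5-positive stem cells from differentiating and holds back the secretory cells that depend on Atoh1, while in stratified squamous epithelium Notch1 takes part in the step from basal to suprabasal cells. In Barrett oesophagus models, Lgr5-positive cells of the gastric cardia are studied as a source of the columnar lining.

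The tissue was the whole squamocolumnar junction with the cardia, from which total RNA was taken, so each value is a mixture of squamous, gastric, stromal, vascular and immune RNA. In such bulk samples fewer cells of a type and less RNA per cell cannot be told apart. The 3 Lgr5 Notch1 floxed mice were 11, 10 and 9 months old and had received tamoxifen at 4, 4 and 3 months. The 3 pL2 mice were 12 months old and their labels give no tamoxifen. Age, tamoxifen and the series of sample titles thus differ with genotype and cannot be told apart from it. The labels name neither the recombinase allele nor the share of Lgr5-positive cells in which it acted. The 3 Lgr5 Notch1 floxed samples differ in age and so came from different animals. The labels do not say whether the 3 pL2 samples are separate animals, or whether any sample pools animals. The p-values rest on a spread between samples that was estimated jointly over all 48 arrays in 16 groups. They thus do not measure the spread of the compared samples alone. The Lgr5 Notch1 floxed group had the largest median within-group SD of the 16 groups (0.310). For context, 5 other lines of the same design were used, each with 3 arrays. These carried a floxed Notch2 (pL2_Lgr5_Notch2fl_fl) or an active Notch2 fragment (pL2_Lgr5_Notch2IC_LacZ), meant to act in Lgr5 cells. The rest carried Notch1fl_fl, Notch2fl_fl or Notch2IC_LacZ, meant to act in Dclk cells, named for a kinase that marks tuft cells. The mice of these 5 lines were 10 to 13 months old and had received tamoxifen at 4 to 6 months.

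Values are log2 signals per gene, so a difference of 1 is a 2-fold difference. They are given as means of 3 arrays with the standard error (SE) of a limma fit, and a gene is called where its Benjamini-Hochberg adjusted p is below 0.05. Array medians lay between 4.03 and 4.27, and a gene was tested where 3 or more of the 48 arrays exceeded their own median for it, which left 15242 genes. The number of arrays limits the precision.

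The 3 Lgr5 Notch1 floxed arrays were unlike one another. Their pairwise correlations across genes were 0.865 for arrays 1 and 2, 0.939 for arrays 1 and 3 and 0.827 for arrays 2 and 3, against 0.946 to 0.976 in pL2. The median within-group SD was 0.310 against 0.236 in pL2, rank 1 of 16 groups, and 6.61% of genes spanned more than 2 log2 units, against 1.51% in pL2. The spread was not particular to this group. In the pL2_Lgr5_Notch2IC_LacZ line the median SD was 0.308, the lowest pairwise correlation 0.875 and the share of such genes 5.41%.

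Array 2 carried liver transcripts. The mean of 19 hepatocyte markers was 4.73, 11.23 and 5.30 in Lgr5 Notch1 floxed arrays 1 to 3, and 6.34, 5.54 and 8.0 in pL2. It was 4.28 to 4.98 in the 15 arrays of the other Notch lines. Elsewhere in the series it reached 8.81 (WT at MRI, array 1), 8.6 (pL2_FXR, array 3) and 8.38 (pL2_IL8 at 12 months, array 1). On Lgr5 Notch1 floxed array 2, 358 genes lay more than 2 log2 units above both other arrays of its group. Among them were 18 of the 19 hepatocyte markers. Alb, the main plasma protein made by liver, read 6.44, 12.82 and 6.50 in the Lgr5 Notch1 floxed arrays and 10.96, 8.24 and 11.65 in pL2, so that the groups overlapped. Ces1c, a carboxylesterase of liver, read 2.79, 11.80 and 2.48.

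Array 3 carried intestinal transcripts. The mean of 18 enterocyte markers was 6.41, 7.07 and 9.60, against 6.10, 6.33 and 6.61 in pL2. The mean of 10 Paneth cell markers was 6.33, 4.67 and 8.85, against 4.59, 4.91 and 5.05. On array 3, 140 genes lay more than 2 log2 units above both other arrays, among them 8 of 18 enterocyte, 7 of 10 Paneth and 3 of 14 goblet cell markers. A further 63 genes lay as far below, including 9 of 39 suprabasal squamous markers. Sis, the sucrase-isomaltase of the small intestinal brush border, read 5.54, 2.97 and 10.44 against 2.84, 2.89 and 3.22. Lct, lactase of the same border, read 3.71, 3.49 and 10.15 against 3.50, 3.47 and 3.93. High enterocyte means were also seen in other lines, where the range was 5.64 to 10.24.

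**Figure D1:**
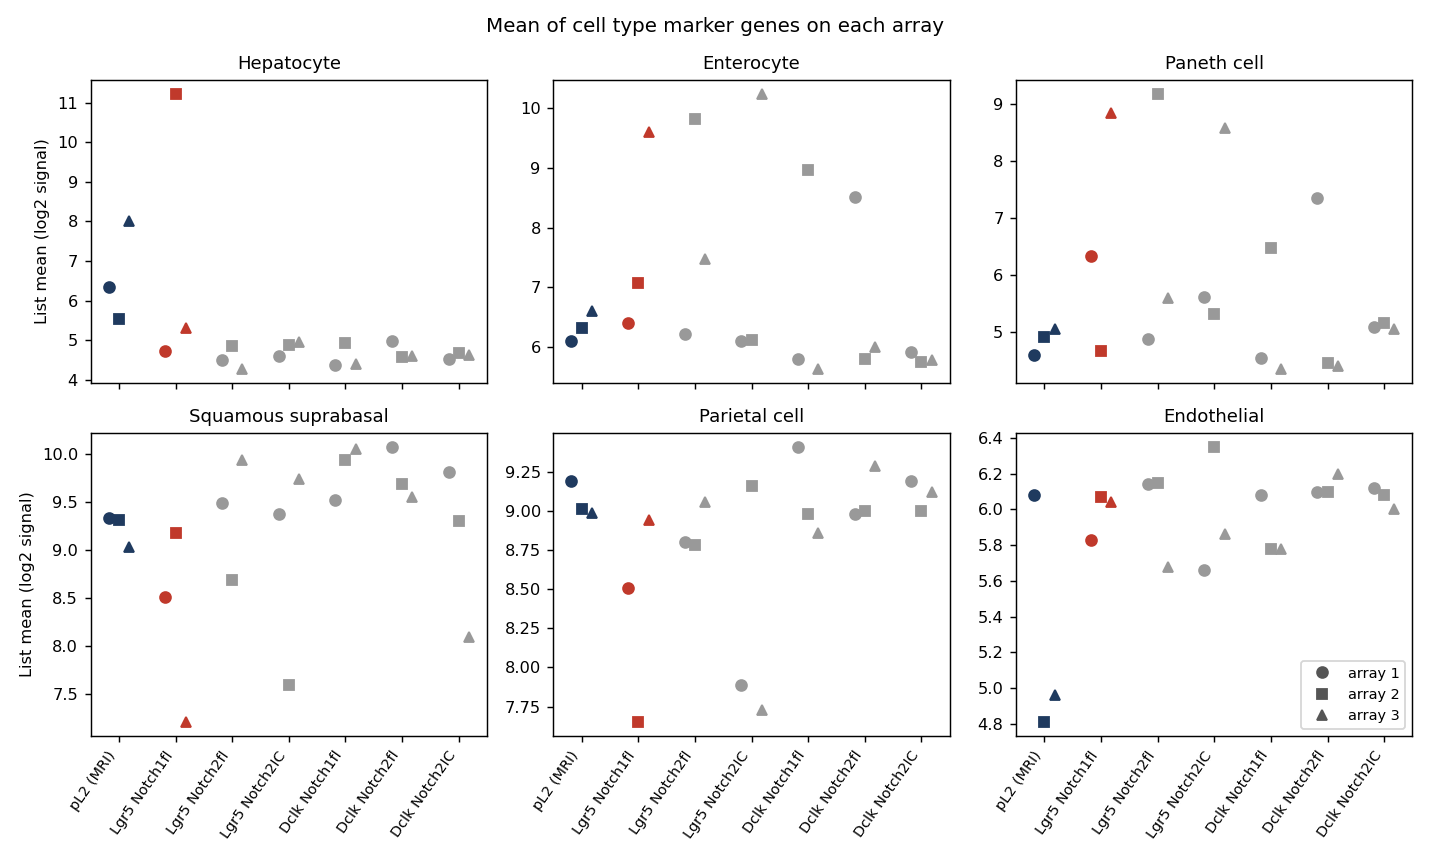
Mean log2 signal of 6 cell type marker lists (vertical axes, one panel per list) on each array of pL2 (dark blue), Lgr5 Notch1 floxed (red) and the 5 other Notch lines (grey), with array 1, 2 and 3 of each group as a circle, square and triangle. Lgr5 Notch1 floxed array 2 stands at 11.23 for hepatocyte markers, and array 3 at 9.60 for enterocyte, 8.85 for Paneth cell and 7.21 for suprabasal squamous markers.

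Array 2 also held transcripts of both sexes. Xist, the RNA that coats the inactive X chromosome, read 11.59, 10.75 and 3.53, and the Y-linked Eif2s3y read 2.52, 7.56 and 8.10. The Y-linked Uty read 2.55, 6.93 and 6.81, and Kdm5d 2.36, 6.42 and 7.08. Of 48 arrays, 2 had Xist above 8 with all 3 of these Y-linked genes above 6, this one and array 3 of the Dclk Notch1 floxed line (Xist 8.75). In pL2, array 1 was high for Xist (12.17) and arrays 2 and 3 for Kdm5d (7.54 and 6.94). The part that RNA from other tissue or another animal played in the results below was not tested. Values without these arrays are given for the main results.

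Against pL2, 22 of 15242 genes were called, which is 0.144%. Of these 12 were higher (54.5%) and 10 lower, and 16 differed at least 2-fold. At an unadjusted p below 0.05 there were 2209 genes. The share of called genes that were higher was 77.8% of 27 after cyclic loess and 79.3% of 29 with arrays centred on their median. All 3 arrays lay above all 3 pL2 arrays for 540 genes (3.54%), and below them for 1329 (8.72%), with a median difference over all genes of -0.08. The count was 0 when only these 6 arrays were fitted and 0 with age as a covariate. It was 13 without array 2, 480 without array 3 and 184 without array 1 of the Lgr5 Notch1 floxed group, and 107, 3 and 1 without pL2 array 1, 2 or 3. It was 63 without both arrays 2 and 3, with 10 of the 22 among them, where the remaining array is assumed to vary as other groups do. Of the 22, only Ctbp2 was called in every one of the 6 fits that left out 1 array, with adjusted p = 0.0255 without pL2 array 3. Ctbp2, Mir344d-2 and Mir7b were the 3 called without pL2 array 2. Without floxed array 2, 6 of the 22 were called (Ctbp2, Mir344d-2, Mir7b, Rsph3b, Sdk2 and Wdr44).

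Of the genes called lower, Ctbp2, a corepressor that binds transcription factors and, as RIBEYE, builds synaptic ribbons, had the smallest p. It read 7.72, 7.76 and 7.75 in pL2 and 7.08, 6.97 and 7.21 in Lgr5 Notch1 floxed mice. The groups did not overlap, and Ctbp2 fell by 0.66 ± 0.10 (adjusted p = 0.00201), a 1.58-fold difference. It was called in 19 of 22 alternative settings, and the difference was -0.67 (adjusted p = 0.0268) with array 1 alone and -0.67 (adjusted p = 0.0947) with age as a covariate. Zmynd8, a reader of acetylated and methylated histones, read 6.91, 7.13 and 6.73 against 6.43, 6.12 and 6.21. It fell by 0.67 ± 0.15 (adjusted p = 0.044), and with array 1 alone the difference was -0.49 (adjusted p = 0.383).

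Rsph3b belongs to a gene pair for a radial spoke protein of motile cilia, whose copies are close enough in sequence that a probe set may not separate them. It read 6.46, 6.82 and 6.57 in pL2 and 4.57, 5.75 and 5.66 in the Lgr5 Notch1 floxed arrays, 2 of which lay below the other 45 arrays of the series (lowest 5.74). The difference was -1.29 ± 0.24 (adjusted p = 0.0153), and -2.04 (adjusted p = 0.000596) with array 1 alone. Icosl, the ligand of the T cell costimulator ICOS, read 6.72, 6.87 and 6.55 against 6.04, 5.50 and 5.98. All 3 Lgr5 Notch1 floxed values lay below the lowest of the other 45 arrays, 6.05. Icosl fell by 0.88 ± 0.16 (adjusted p = 0.0153), with -0.68 (adjusted p = 0.202) for array 1 alone.

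Amh, anti-Müllerian hormone, read 4.97, 5.08 and 5.34 in pL2 and 3.67, 3.68 and 4.23 in the floxed group, near the array medians. It fell by 1.27 ± 0.25 (adjusted p = 0.0184), and the difference was -1.18 (adjusted p = 0.0728) without array 2 and -1.46 (adjusted p = 0.049) with array 1 alone. Gpr27, an orphan receptor coupled to G proteins, read 5.57, 6.25 and 6.73 against 5.44, 3.89 and 4.43. It fell by 1.60 ± 0.29 (adjusted p = 0.0111), the largest fall of the 10, while array 1 lay close to pL2 array 1 and the difference for array 1 alone was -0.75 (adjusted p = 0.453). Ly6g6e, a gene of the Ly6 family in the major histocompatibility region, read 7.46, 8.03 and 8.18 against 6.80, 6.76 and 6.84 and fell by 1.09 ± 0.21 (adjusted p = 0.0184), with adjusted p = 0.0631 without array 2.

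The other 3 falls were of 0.60 to 0.63. Arhgef18, which acts at epithelial junctions, read 7.79, 7.84 and 7.85 against 7.09, 7.04 and 7.47 (-0.63 ± 0.13, adjusted p = 0.0203). Ddr1, a receptor kinase for collagen, read 9.10, 9.14 and 9.17 against 8.48, 8.44 and 8.69 (-0.60 ± 0.13, adjusted p = 0.0371). Wdr44, a partner of Rab11 in endosome recycling, read 5.93, 6.07 and 5.87 against 5.17, 5.50 and 5.41 (-0.60 ± 0.13, adjusted p = 0.0316). In each of these the groups did not overlap, and array 3 came closest to pL2 for Arhgef18 and Ddr1. Without array 2 Arhgef18 (adjusted p = 0.105) and Ddr1 (adjusted p = 0.119) were not called. With array 1 alone Arhgef18 (-0.74, adjusted p = 0.0406) and Wdr44 (-0.79, adjusted p = 0.0362) were called and Ddr1 (-0.66, adjusted p = 0.111) was not.

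Several of the higher genes were carried by array 2. Angptl8, a liver and fat hormone that regulates lipoprotein lipase, read 4.40, 4.85 and 5.22 in pL2 and 5.79, 9.06 and 6.38 in the floxed group. It rose by 2.26 ± 0.45 (adjusted p = 0.0184), a 4.78-fold difference, with 1.26 (adjusted p = 0.122) without array 2 and 0.97 (adjusted p = 0.405) with array 1 alone. Fgfr4, the receptor through which FGF15 acts on hepatocytes, read 4.85, 4.47 and 4.96 against 5.28, 7.48 and 5.80. It rose by 1.43 ± 0.30 (adjusted p = 0.0298), with 0.78 (adjusted p = 0.169) without array 2. Dennd5b, an exchange factor for Rab GTPases involved in chylomicron secretion, read 5.61, 5.25 and 5.45 against 6.14, 7.96 and 6.63 and rose by 1.47 ± 0.30 (adjusted p = 0.0228), with 0.94 (adjusted p = 0.164) without array 2. The groups did not overlap in any of the 3, and array 2, the array with hepatocyte markers at 11.23, was the highest each time.

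Cdh5, the cadherin of endothelial junctions, read 7.52, 5.37 and 6.39 in pL2 and 7.62, 8.25 and 8.0 in the floxed group. It rose by 1.53 ± 0.30 (adjusted p = 0.0184), a 2.89-fold difference. The difference was 1.0 (adjusted p = 0.259) without pL2 array 2, 1.39 (adjusted p = 0.0896) without floxed array 2 and 1.19 (adjusted p = 0.266) with floxed array 1 alone. The spread lay in pL2, whose array 1 came close to the lowest floxed array, and the other Notch lines ranged from 7.09 to 8.22. Against the pL2 mice from Freising the difference was 0.42 (adjusted p = 0.385), and facility and genotype cannot be told apart there. Sdk2, an adhesion protein of synapses, read 4.36, 3.51 and 4.23 against 5.49, 4.60 and 6.10 and rose by 1.36 ± 0.30 (adjusted p = 0.0476), with 1.01 (adjusted p = 0.0683) without array 3.

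Other higher genes lay near or below the array medians in pL2 and belong to families of near-identical copies, so their identity is uncertain. Astx5, of a mouse testis gene cluster, read 3.33, 3.39 and 3.33 against 5.73, 8.38 and 5.93, a rise of 3.33 ± 0.66 (adjusted p = 0.0184) that was 2.48 (adjusted p = 0.141) without array 2. Speer4b, of another multicopy testis family, read 2.16, 2.20 and 2.28 against 4.57, 4.44 and 3.58 (1.98 ± 0.42, adjusted p = 0.0316). Spopfm2, a relative of the ubiquitin ligase adaptor Spop, read 2.64, 3.02 and 3.32 against 4.67, 4.39 and 3.97 (1.35 ± 0.27, adjusted p = 0.0203). The odorant receptor genes Olfr452 and Olfr617, described because they complete the 22 and chosen after their values were seen, stood at 2.65 to 3.06 and 2.56 to 2.90 in pL2. In the floxed group Olfr452 read 6.02, 5.16 and 3.95 and Olfr617 5.30, 4.55 and 3.55, with the order array 1, 2, 3 from high to low in both. Olfr452 rose by 2.23 ± 0.44 (adjusted p = 0.0184) and Olfr617 by 1.71 ± 0.35 (adjusted p = 0.0269). Without array 2 the adjusted p was 0.104 for Speer4b, 0.0669 for Spopfm2, 0.0655 for Olfr452 and 0.0845 for Olfr617.

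**Figure D2:**
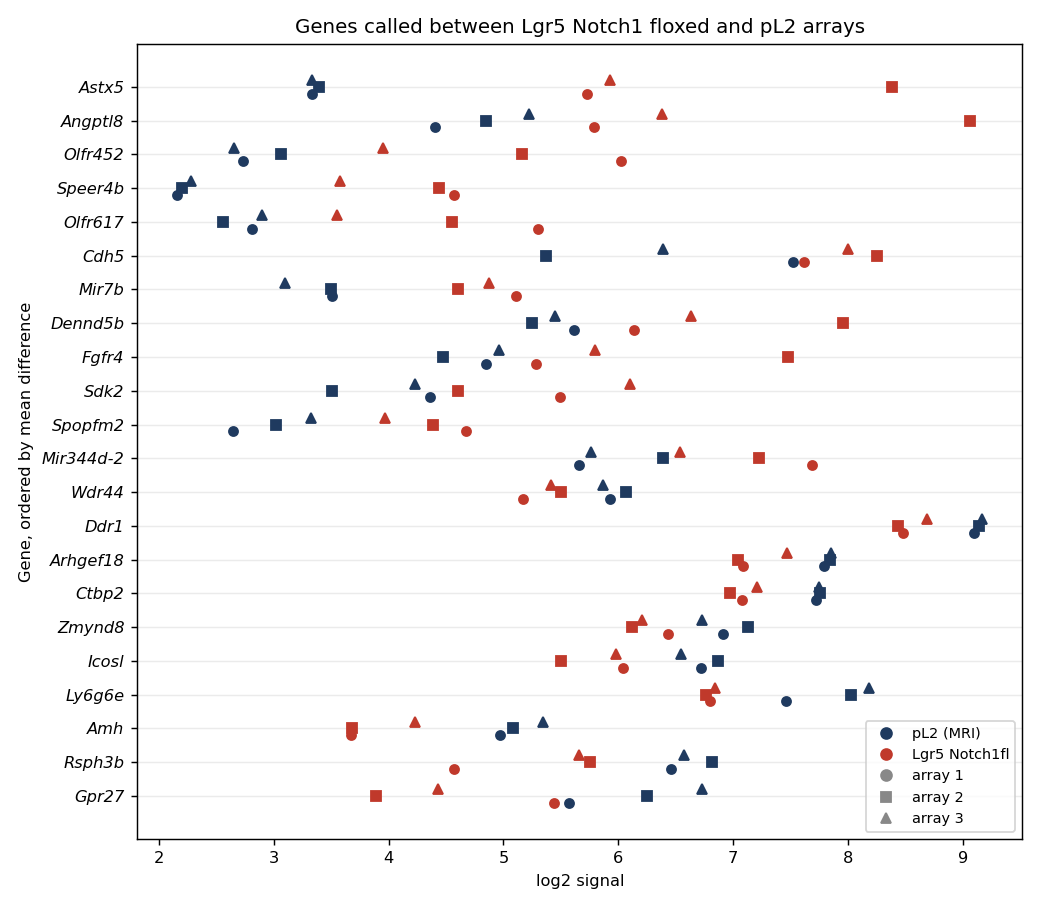
Log2 signal (horizontal axis) of the 22 called genes on each of the 3 pL2 arrays (dark blue) and 3 Lgr5 Notch1 floxed arrays (red), with genes in the order of their mean difference and array 1, 2 and 3 as circle, square and triangle. The groups do not overlap for any of the 22, which were picked for a difference on these same arrays. Of all genes tested, 3.54% lay above all pL2 arrays and 8.72% below them in the same way. Array 2 is the highest for Astx5 (8.38), Angptl8 (9.06), Dennd5b (7.96) and Fgfr4 (7.48).

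The last 2 of the 22 were microRNA loci, also chosen after their values were seen. Their mature products are shown because a locus can share its seed, the bases that pair with targets, with other loci. Sequences and positions are from RefSeq for GRCm38.p6, written 5′ to 3′, with the seed (bases 2 to 8) in capitals. The Mir344d-2 hairpin lies on the minus strand of chromosome 7 (miR-344d-3p at chr7:61685279-61685300) and the Mir7b hairpin on the plus strand of chromosome 17 (miR-7b-5p at chr17:56243017-56243040).
miR-344d-3p: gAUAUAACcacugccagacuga
miR-344d-2-5p: aGUCUGGUugcuggcuauauucca
miR-7b-5p: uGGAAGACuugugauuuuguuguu
miR-7b-3p: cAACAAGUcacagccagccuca
miR-7a-5p: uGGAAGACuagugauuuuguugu

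Mir344d-2 read 5.66, 6.39 and 5.76 in pL2 and 7.69, 7.23 and 6.54 in the floxed group. Arrays 1 and 2 lay above the highest of the other 45 arrays, 6.81, and the groups did not overlap. It rose by 1.22 ± 0.21 (adjusted p = 0.00707), a 2.32-fold difference, and was called in 19 of 22 alternative settings, with 1.75 (adjusted p = 0.000596) for array 1 alone. The mature miR-344d-3p is identical in Mir344d-1 and Mir344d-3, whose own probe sets read 2.66 to 3.01 and 1.74 to 2.31 in the 6 arrays and were not tested. Its seed is also that of Mir344e and Mir410.

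Mir7b read 3.51, 3.50 and 3.10 in pL2 and 5.11, 4.60 and 4.87 in the floxed group. It rose by 1.49 ± 0.26 on the log2 scale (adjusted p = 0.00707). The pL2 values lay below the array medians, so no fold is given. It was called in 17 of 21 alternative settings. The miR-7a-5p of Mir7-1 and Mir7-2 has the same seed. Mir7-1 read 6.20, 5.36 and 5.05 against 5.68, 5.73 and 5.83 (0.21 ± 0.41, adjusted p = 0.861), so the groups overlapped, and Mir7-2 read 2.63, 3.34 and 2.86 against 3.11, 3.41 and 3.25 and was not tested. Which part of a precursor the probes cover is not given in the sources used here, so these values describe the transcribed locus and not the mature RNA.

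Among the listed Notch pathway genes, none was called against pL2 of the same facility. The corepressor gene Ctbp2, called lower above, was not on these lists. Against pL2 from Freising, where facility and genotype cannot be told apart and 1330 genes were called, Jag1 (-0.94, adjusted p = 0.0217), Jag2 (-1.17, adjusted p = 0.0298) and Notch3 (-1.20, adjusted p = 0.0375) were lower. Notch1, the gene that was floxed, read 8.21, 7.68 and 7.75 in pL2 and 7.36, 7.82 and 7.42 in the Lgr5 Notch1 floxed arrays. The groups overlapped through array 2, and the difference was -0.35 ± 0.22 (adjusted p = 0.48). Lgr5-positive cells are a minor part of this tissue and whether the probes lie in the floxed exons is not known here, so the value does not check the label. Notch1 in WT mice of the same facility read 7.75, 7.65 and 8.06.

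All 4 receptors had a negative difference, with a median of -0.49 beside -0.08 for all genes. Notch2 read 8.98, 8.66 and 8.76 against 8.19, 8.67 and 7.94 (-0.53 ± 0.22, adjusted p = 0.26). Notch3, which pericytes and smooth muscle also express, read 7.85, 7.53 and 7.61 against 7.17, 7.59 and 6.06 (-0.72 ± 0.37, adjusted p = 0.36). Array 3, low in squamous markers, was the lowest in both. Notch4, an endothelial receptor, read 6.53, 7.35 and 7.23 against 6.75, 5.98 and 7.02 (-0.45 ± 0.22, adjusted p = 0.337). None of the 4 had all floxed arrays below pL2. The median was -0.33 without array 3 and -0.61 without array 2.

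The ligands moved in no common direction, 3 positive and 3 negative with a median of -0.11. Jag1, a Jagged ligand abundant in squamous epithelium, read 9.31, 9.10 and 9.00 against 8.58, 8.77 and 8.21. The groups did not overlap, and the difference was -0.61 ± 0.25 (adjusted p = 0.263). Jag2 read 7.06, 6.70 and 6.69 against 6.03, 6.37 and 6.42, also without overlap (-0.54 ± 0.34, adjusted p = 0.466). The Delta-like ligands Dll1 (0.03 ± 0.27, adjusted p = 0.974) and Dll4 (0.07 ± 0.25, adjusted p = 0.938) differed by less than their SE. Dner, a ligand known from neurons, read 3.18, 3.27 and 3.61 against 4.11, 4.02 and 3.98, below the array medians (0.68 ± 0.27, adjusted p = 0.241).

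Genes that process the receptor gave 6 positive and 13 negative differences, median -0.17. Psenen, a subunit of gamma-secretase, read 10.40, 10.87 and 11.00 against 11.05, 10.88 and 11.15 (0.27 ± 0.13, adjusted p = 0.337), with array 2 within the range of pL2. Adam10, the protease of the first cut, differed by -0.18 ± 0.19 (adjusted p = 0.702). The 10 nuclear partners had a median of -0.04. Rbpj, the DNA-binding protein of the pathway, read 6.66, 6.87 and 7.33 against 7.01, 6.69 and 7.14 (-0.01 ± 0.18, adjusted p = 0.987). Maml1, a Mastermind coactivator, read 6.12, 6.33 and 6.58 against 5.57, 5.51 and 6.43 (-0.50 ± 0.21, adjusted p = 0.257), and only its array 3 entered the pL2 range.

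The 11 target genes had a median of 0.11, with 7 positive and 4 negative. Hes1, the repressor through which Notch holds back secretory fate, read 7.57, 7.98 and 8.0 against 8.29, 7.62 and 7.99 (0.11 ± 0.19, adjusted p = 0.827). Hey1 read 4.82, 4.29 and 4.86 against 5.25, 4.87 and 5.47 (0.54 ± 0.33, adjusted p = 0.457), with all 3 floxed arrays above pL2. Nrarp, a target that feeds back on the receptor's intracellular part, read 7.20, 7.72 and 7.55 against 7.19, 7.20 and 6.40 (-0.56 ± 0.37, adjusted p = 0.496). Heyl differed by 0.07 ± 0.32 (adjusted p = 0.95). Of 5 tested genes of the secretory programme, Atoh1, its master regulator, read 3.41, 3.63 and 3.63 against 3.81, 3.64 and 5.76 (0.84 ± 0.46, adjusted p = 0.405). Atoh1 was thus high on array 3, the array with goblet and Paneth cell markers, and the part of those cells was not tested.

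**Figure D3:**
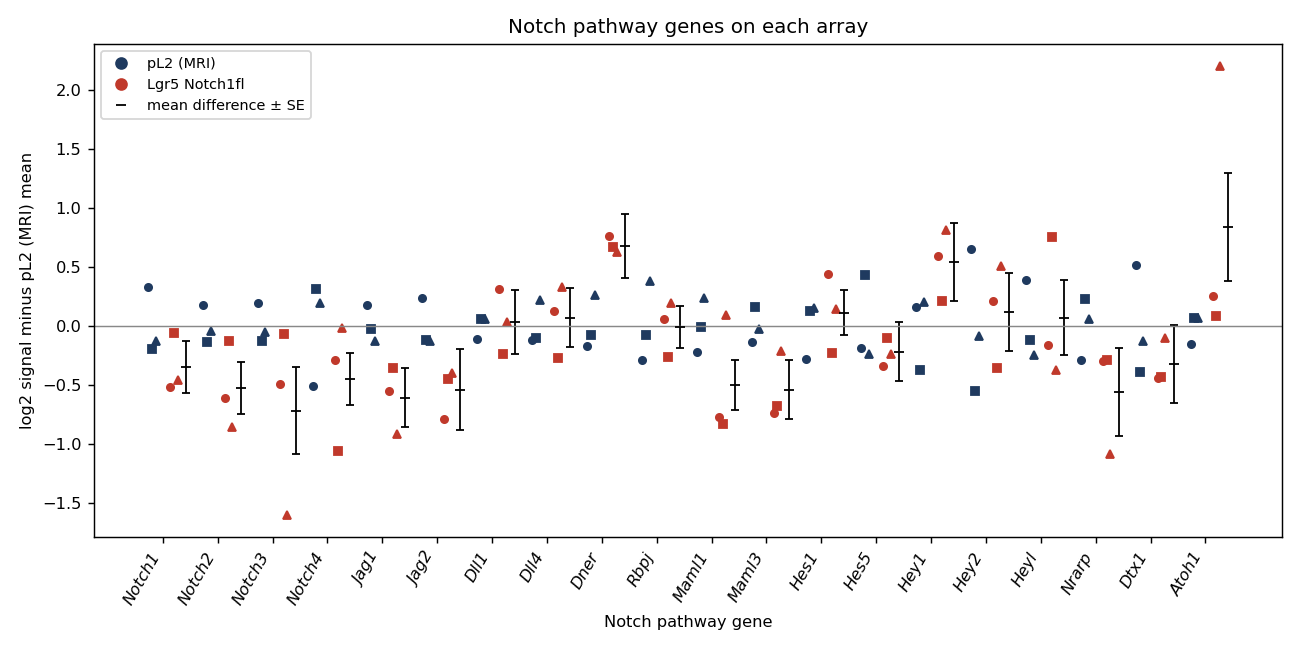
Log2 signal minus the pL2 mean (vertical axis) for 20 Notch pathway genes (horizontal axis) on the 3 pL2 arrays (dark blue) and 3 Lgr5 Notch1 floxed arrays (red), with the fitted difference and its SE in black. The differences of Notch1 to Notch4 are -0.35, -0.53, -0.72 and -0.45, and none of the 20 genes was called.

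The driver gene and the cell types it marks showed no called gene. Lgr5 itself read 5.66, 4.56 and 5.75 in pL2 and 5.14, 6.34 and 5.05 in the floxed group (0.18 ± 0.47, adjusted p = 0.901), with overlapping groups. The 21 columnar stem cell markers had a median of 0.04, with 12 positive and 9 negative. Aqp5, a water channel of antral stem and gland base cells, read 6.44, 5.28 and 6.26 against 7.21, 6.32 and 7.78 (1.11 ± 0.47, adjusted p = 0.274). The 15 Wnt targets had a median of 0.19, and Myc, the growth regulator among them, read 8.47, 8.64 and 8.17 against 8.05, 7.70 and 7.87 without overlap (-0.55 ± 0.24, adjusted p = 0.281). The 13 tuft cell markers had a median of -0.05, and Dclk1, the tuft cell kinase, differed by 0.19 ± 0.22 (adjusted p = 0.733). The 25 cell cycle genes had a median of 0.00.

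Intestinal lineage genes were positive as groups and carried by array 3. Of 18 enterocyte genes 17 had a positive difference, with a median of 1.24 that was -0.02 without array 3. Of 10 Paneth genes 9 were positive, median 1.96 and 0.82 without array 3. Of 14 goblet genes 10 were positive, median 0.45 and 0.16 without array 3. No member of the 3 lists was called. Muc2, the mucin of intestinal goblet cells, read 4.14, 4.28 and 5.21 in pL2 and 8.18, 4.29 and 11.38 in the floxed group (3.41 ± 1.43, adjusted p = 0.269).

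Array 1, which had neither high hepatocyte nor high enterocyte means, held part of this pattern. Defa22, a Paneth cell defensin of a family of near-identical genes, read 3.99, 3.94 and 4.02 in pL2 and 8.28, 3.89 and 11.48 in the floxed group (3.90 ± 1.31, adjusted p = 0.174). Mmp7, the protease that activates defensins, read 3.62, 4.53 and 4.58 against 6.64, 4.71 and 7.15 (1.93 ± 0.71, adjusted p = 0.214). Klk1, a kallikrein on the goblet list, read 6.73, 7.26 and 7.71 against 8.83, 7.79 and 9.86 and did not overlap (1.59 ± 0.57, adjusted p = 0.201). With array 1 as the only floxed array, the Paneth median was 1.62, the goblet median 0.30 and the enterocyte median 0.10.

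Bile acid genes were highest on array 2. Their list means were 4.52, 6.63 and 4.78 in the floxed group and 4.05, 4.13 and 4.47 in pL2. Arrays 1 and 3 thus also lay above pL2, though within the range of the other Notch lines (3.77 to 5.08). All 10 genes of the bile acid and FXR list had a positive difference, median 0.95, and the median was 0.15 without array 2. Nr1h4, which encodes the bile acid receptor FXR, read 4.39, 5.73 and 5.73 against 5.31, 7.22 and 5.91 (0.87 ± 0.37, adjusted p = 0.282). The 19 hepatocyte genes had a median of 0.68, and -1.64 without array 2. Array 3 of pL2 also held liver transcripts.

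Among gastric lineages the acid-secreting parietal cell genes were lower as a group. All 11 had a negative difference with a median of -0.65, and 6 had all 3 floxed arrays below all pL2 arrays, beside 8.72% of all genes. Atp4a, a subunit of the proton pump, read 12.46, 12.33 and 12.21 against 11.73, 10.84 and 12.11 (-0.77 ± 0.29, adjusted p = 0.223). The second subunit, Atp4b, read 12.41, 12.42 and 12.34 against 11.91, 11.08 and 12.22 (-0.65 ± 0.26, adjusted p = 0.255). Array 2 was the lowest for both, and the list median was -0.34 without array 2. The list means in the other Notch lines ranged from 7.73 to 9.41, which includes all 3 floxed arrays except array 2 at 7.65.

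Of 12 pit cell genes 11 were negative, median -0.30. Muc5ac, the surface mucin, read 12.00, 12.29 and 12.35 against 12.05, 10.99 and 12.25 (-0.45 ± 0.30, adjusted p = 0.503), and only array 2 was low. Capn9, a stomach calpain, read 7.84, 8.68 and 8.96 against 6.91, 6.51 and 7.45 without overlap (-1.53 ± 0.48, adjusted p = 0.151). The 9 neck and chief cell genes had a median of 0.05. Muc6, the gland mucin, read 11.56, 10.35 and 10.64 against 12.32, 11.31 and 12.51 (1.19 ± 0.34, adjusted p = 0.121), and array 2 overlapped pL2. Pga5, a pepsinogen, read 7.95, 7.0 and 7.62 against 8.85, 8.61 and 9.84 without overlap (1.58 ± 0.61, adjusted p = 0.241).

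Suprabasal squamous genes were lower as a group, most on array 3. Of 39 members 37 had a negative difference, with a median of -0.89, and 10 had all floxed arrays below all pL2 arrays (8.72% of all genes did). None was called, and 13 had an unadjusted p below 0.05, beside 2209 of 15242 genes. Krt10, a keratin of cornifying cells, read 12.31, 11.90 and 11.55 in pL2 and 11.29, 11.77 and 8.73 in the floxed group (-1.32 ± 0.40, adjusted p = 0.141). Its partner Krt1 read 12.42, 11.45 and 10.61 against 10.03, 10.46 and 5.84 without overlap (-2.72 ± 0.99, adjusted p = 0.211). Dsg1a, a desmoglein of the upper layers, read 6.00, 5.19 and 5.84 against 5.14, 4.65 and 2.91 (-1.45 ± 0.47, adjusted p = 0.158). The list median was -0.39 without array 3, -1.29 without array 2 and -0.63 with array 1 alone.

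The basal layer differed less. The 11 basal squamous genes had a median of -0.33, with 9 negative and none called. Krt14, the basal keratin, read 11.25, 11.32 and 11.92 against 11.32, 11.34 and 10.77 (-0.35 ± 0.33, adjusted p = 0.661). Trp63, the master regulator of basal cells, read 7.75, 7.19 and 7.15 against 7.01, 7.20 and 6.56 (-0.44 ± 0.37, adjusted p = 0.618).

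**Figure D4:**
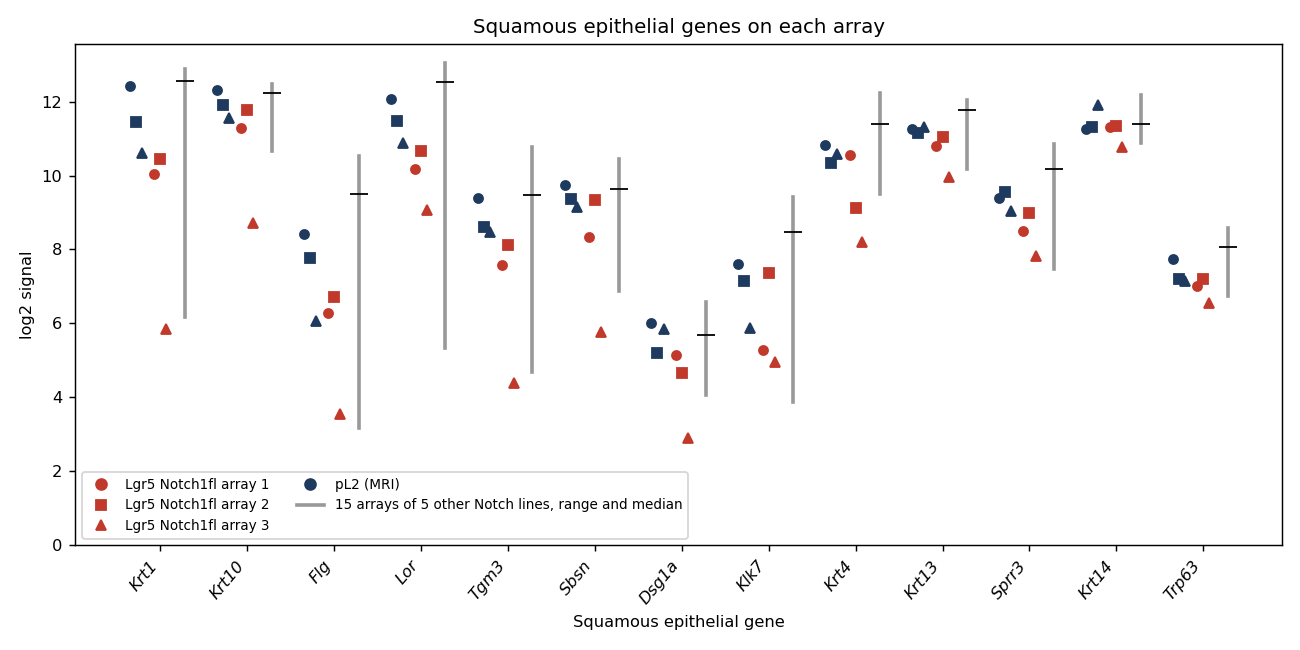
Log2 signal (vertical axis, from 0) of 13 squamous epithelial genes (horizontal axis) on the pL2 arrays (dark blue) and Lgr5 Notch1 floxed arrays 1 to 3 (red circle, square, triangle), beside the range (grey line) and median (black mark) of 15 arrays of the other Notch lines. Array 3 is the lowest red point for all 13 genes, at 5.84 for Krt1 and 8.73 for Krt10, and the median of the other lines stands at 12.56 and 12.23 for these.

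Endothelial genes were higher as a group, and the low values were those of pL2 arrays 2 and 3. The mean of 16 endothelial markers was 6.08, 4.81 and 4.96 in pL2 and 5.83, 6.07 and 6.04 in the floxed group. The other Notch lines ranged from 5.66 to 6.35 and the WT mice of the facility from 6.52 to 6.98. Of the 16, 15 had a positive difference with a median of 0.69. Cdh5 was called (0.144% of all genes were), and 10 others had an unadjusted p below 0.05, beside 2209 of 15242 genes. Eng, an endothelial co-receptor for TGF-beta, read 7.37, 5.64 and 6.15 against 7.03, 8.18 and 7.69 (1.25 ± 0.29, adjusted p = 0.0566), and Pecam1 7.39, 6.05 and 6.11 against 7.20, 6.91 and 7.08 (0.55 ± 0.25, adjusted p = 0.31). Array 1 of pL2 lay just above the floxed range for the list. Against pL2 mice from Freising the median was -0.28.

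Smooth muscle genes gave 12 negative differences of 13, median -0.85, and the high array was pL2 array 1 (list mean 8.86 against 6.93 and 7.20). Without it the median was -0.15. The floxed arrays had list means of 6.96, 6.20 and 7.54. All 8 mesothelial genes were negative, median -0.73, and 4 had all floxed arrays below pL2, as 8.72% of all genes did. Msln, mesothelin, read 4.53, 5.54 and 4.72 against 3.27, 3.68 and 3.31 (-1.51 ± 0.38, adjusted p = 0.076). Mesothelium covers the outer surface of the organ. The list means of the floxed arrays, 4.93, 4.61 and 5.19, overlapped those of the other Notch lines (4.50 to 5.15), and against pL2 mice from Freising the median was 0.04. Skeletal muscle genes had means of 5.55, 5.67 and 3.88 against 5.25, 4.06 and 3.90, median 0.58.

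Genes downstream of interleukin-1, the cytokine of the pL2 transgene, were lower as a group without a call. Of 24 genes of interleukin-1 and NF-kB signalling 22 had a negative difference, with a median of -0.69, and 5 had all floxed arrays below pL2 (Il17a, Il1r2, Il1rn, Nfkbiz and Tnf), beside 8.72% of all genes. Of the list 11 had an unadjusted p below 0.05, beside 2209 of 15242 genes. The list means were 6.10, 6.62 and 7.0 in pL2 and 5.86, 6.07 and 5.78 in the floxed group, against 5.69 to 7.02 in the other Notch lines and 5.08 to 5.67 in WT. Il1b, for which it is not known here whether the probes also read the transgene, read 7.17, 7.25 and 8.88 against 6.30, 7.25 and 5.76 (-1.33 ± 0.65, adjusted p = 0.341). Nfkbiz, a nuclear regulator induced by interleukin-1, read 8.51, 8.80 and 8.89 against 8.41, 7.75 and 7.88 (-0.72 ± 0.21, adjusted p = 0.126). The cytokine gene Il17a read 4.86, 4.91 and 4.71 against 3.76, 3.88 and 3.45 (-1.13 ± 0.37, adjusted p = 0.166). Against pL2 mice from Freising the list median was 0.19.

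Neutrophil genes gave 11 negative differences of 14, median -0.81, and -0.15 without pL2 array 3, the highest array of the list at 8.10. S100a8, a calprotectin subunit, read 10.44, 10.89 and 10.28 against 10.09, 10.52 and 7.78 (-1.07 ± 0.69, adjusted p = 0.486). The 13 macrophage genes had a median of 0.41. Mrc1, the mannose receptor of resident macrophages, read 5.85, 4.67 and 4.30 against 6.14, 7.04 and 5.80 (1.39 ± 0.41, adjusted p = 0.137). Liver sinusoids also express it, and array 2 was the highest. Tpsab1, a mast cell tryptase, read 4.53, 4.58 and 3.94 against 5.84, 5.51 and 7.52 without overlap (1.94 ± 0.45, adjusted p = 0.0566). Interferon response genes had a median of -0.22 (4 of 20 positive), antigen presentation genes of class I and II -0.07 and -0.06, and complex I genes -0.14 with 24 of 27 negative.

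The same arrays were set against those of the line with floxed Notch2 in the same cells, also treated with tamoxifen. Its mice were 10, 11 and 11 months old and had received tamoxifen at 4, 5 and 4 months. Age and age at tamoxifen thus also differ, and their part cannot be told apart from that of the receptor. Array 2 of the Notch2 floxed line had an enterocyte mean of 9.81. Limma called 23 genes, 13 higher and 10 lower, or 0.151%, with 0 called in a fit of these 6 arrays alone and 2246 at an unadjusted p below 0.05. For Tpm3, Tmod4 and Lyrm7 the Notch2 floxed values lay close together and apart from both other groups. Tpm3, a tropomyosin, read 8.32, 7.89 and 8.08 in the Notch1 floxed group and 9.96, 9.84 and 9.90 in the Notch2 floxed group (-1.81 ± 0.24, adjusted p = 4.3e-05), while against pL2 it differed by -0.18 ± 0.24 (adjusted p = 0.77). Tmod4, a tropomodulin of skeletal muscle, read 4.47, 4.55 and 4.16 against 5.72, 5.85 and 5.88 (-1.42 ± 0.15, adjusted p = 4.45e-07), with 0.13 ± 0.15 (adjusted p = 0.728) against pL2. Lyrm7, an assembly factor of respiratory complex III, read 5.34, 5.45 and 5.07 against 3.77, 3.93 and 3.81 (1.45 ± 0.25, adjusted p = 0.0038), with -0.21 ± 0.25 (adjusted p = 0.742) against pL2. For these 3 genes the Notch1 floxed values lay close to pL2.

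Of the genes called against pL2, only some are described here, and the direction of the others against Notch2 floxed is not given. Among those described, Rsph3b, Zmynd8, Ctbp2, Fgfr4 and Mir7b had the same direction against Notch2 floxed as against pL2. They were picked from genes already called on the same floxed arrays, so the shared direction is not separate evidence. Of all genes tested, 0.151% were called against Notch2 floxed. Rsph3b differed by -1.37 ± 0.24 (adjusted p = 0.00439) and Ctbp2 by -0.49 ± 0.10 (adjusted p = 0.0241). Zmynd8 read 6.85, 6.88 and 7.31 in the Notch2 floxed arrays (-0.76 ± 0.15, adjusted p = 0.0151), with adjusted p = 0.0541 after cyclic loess and 0.103 without array 2. Both comparisons rest on the same 3 Notch1 floxed arrays, so they are not independent. Fgfr4 (1.52 ± 0.30, adjusted p = 0.0177) and Aadac, a lipase of liver and intestine that read 7.81, 9.37 and 7.30 against 6.18, 6.59 and 6.15 (1.85 ± 0.35, adjusted p = 0.0103), were highest on array 2. Without it Fgfr4 was 0.87 (adjusted p = 0.149) and Aadac 1.25 (adjusted p = 0.129). Tlr6, a receptor for bacterial lipopeptides, read 6.57, 6.17 and 6.47 against 5.34, 4.99 and 4.71 (1.39 ± 0.31, adjusted p = 0.0481), with no overlap and adjusted p = 0.101 without array 2. Notch1 differed by -0.42 ± 0.22 (adjusted p = 0.386) and Notch2 by -0.42 ± 0.22 (adjusted p = 0.364).

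Set against the line with the same floxed gene in Dclk cells, 412 genes were called, 2.70% of those tested. Of these 71 were higher (0.466%) and 341 lower (2.24%). The mice of the Dclk line were 11, 12 and 13 months old and had received tamoxifen at 5, 6 and 6 months. Age and age at tamoxifen thus also differ between the lines, and their part cannot be told apart from that of the driver. The share that was higher, 17.2%, became 61.3% of 62 genes after cyclic loess and 50.9% of 114 with arrays centred on their median. The count was 2 in a fit of the 6 arrays alone, 1 with age as a covariate, 0 without Dclk Notch1 floxed array 2, 3 without array 3 of that line, 654 without Lgr5 Notch1 floxed array 3 and 26 without Lgr5 Notch1 floxed arrays 2 and 3.

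The largest differences were lower squamous genes. Klk5, a kallikrein that sheds cornified cells, read 3.45, 4.19 and 2.77 in the Lgr5 line and 6.87, 9.57 and 8.03 in the Dclk line (-4.68 ± 1.25, adjusted p = 0.0403). Slurp2, a secreted Ly6 protein of keratinocytes, read 6.18, 7.39 and 5.15 against 9.75, 10.33 and 10.43 (-3.93 ± 1.02, adjusted p = 0.0356). Krt1 stood at 12.30, 12.85 and 12.75 in the Dclk line (-3.86 ± 0.99, adjusted p = 0.0351). In each case the lines did not overlap, and 10 of 39 suprabasal genes were called lower and none higher, beside 2.24% of all genes. After cyclic loess the adjusted p was 0.0675 for Klk5, 0.066 for Slurp2 and 0.0654 for Krt1, and with centred arrays it was 0.0562 for each. Without Lgr5 Notch1 floxed array 3 Klk5 was -4.33 (adjusted p = 0.0694), Slurp2 -3.39 (adjusted p = 0.078) and Krt1 -2.39 (adjusted p = 0.147). Myl7, a myosin light chain of heart atria, read 5.00, 5.03 and 4.87 against 7.90, 8.39 and 8.66 (-3.35 ± 0.77, adjusted p = 0.0297) and was called also in the fit of the 6 arrays alone (adjusted p = 0.0198).

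Notch1 itself was lower than in the Dclk line, where it read 8.06, 8.26 and 8.63 (-0.78 ± 0.22, adjusted p = 0.0477). Nrarp stood at 8.18, 8.52 and 8.72 there (-1.55 ± 0.37, adjusted p = 0.0344) and Jag1 at 9.51, 9.29 and 9.72 (-0.98 ± 0.25, adjusted p = 0.0351). These 3 genes are expressed in squamous epithelium, whose suprabasal markers moved with them, and the part of tissue composition was not tested. After cyclic loess the adjusted p was 0.107 for Notch1, 0.06 for Nrarp and 0.078 for Jag1, and without array 3 it was 0.0875, 0.0643 and 0.0822. Higher genes included Lrg1, a glycoprotein of the acute phase, which read 8.99, 8.92 and 9.08 against 6.25, 6.17 and 6.40 (2.72 ± 0.57, adjusted p = 0.0218). Lrg1 was even across the Lgr5 arrays and called in the fit of the 6 arrays alone (adjusted p = 0.0141). Onecut2, a transcription factor of liver and intestine, read 7.31, 7.33 and 6.20 against 4.39, 5.10 and 4.78 (2.19 ± 0.44, adjusted p = 0.0218). Ambp, a plasma protein of liver, read 7.16, 11.10 and 6.74 against 4.13, 5.15 and 4.89 (3.61 ± 0.93, adjusted p = 0.0351), and the difference was 2.23 (adjusted p = 0.177) without array 2.

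Set against the mean of the 5 other Notch lines (15 arrays), 960 genes were called, 6.30%, with 290 higher (1.90%) and 670 lower (4.40%). The share that was higher, 30.2%, became 61.0% of 515 after cyclic loess and 55.6% of 702 with centred arrays. The count was 0 in a fit of these groups alone, 9 with age as a covariate, 404 without Lgr5 Notch1 floxed array 2, 60 without its arrays 2 and 3 and 65 without all arrays high in liver or intestinal transcripts. Without single arrays of the other lines it was 630 (Lgr5 Notch2 floxed array 3), 620 (Dclk Notch1 floxed array 3) and 603 (Dclk Notch2IC_LacZ array 1).

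Lower genes were led by squamous ones. Of 39 suprabasal genes 12 were called lower and none higher, with a median of -0.99, beside 4.40% of all genes. They were Calm4, Dsg1a, Flg, Klk7, Krt1, Krt10, Krt4, Krtdap, Sbsn, Spink5, Sprr2d and Tgm1, most of them active in cornification. Krt10 ranged from 10.67 to 12.47 with a median of 12.23 in the other lines (-1.50 ± 0.31, adjusted p = 0.00932), and Krt4, the keratin of moist squamous epithelium, from 9.49 to 12.24 against 10.56, 9.13 and 8.20 (-1.79 ± 0.47, adjusted p = 0.0229). Without array 3 none of the 39 was called and the median was -0.59. Flg, filaggrin, read 6.27, 6.71 and 3.55 against a median of 9.50 in the other lines (-2.85 ± 0.88, adjusted p = 0.0466), with -1.86 (adjusted p = 0.258) without array 3. Trp63 was called lower too (-1.0 ± 0.29, adjusted p = 0.0366), and without array 3 no basal squamous gene was called.

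Among Notch genes, Notch1 ranged from 7.49 to 8.63 in the other lines, so that floxed arrays 1 and 3 lay below all 15 and array 2 within them. It fell by 0.63 ± 0.17 (adjusted p = 0.0275), with adjusted p = 0.0765 after cyclic loess, 0.0737 without array 3 and 0.112 without array 1. Notch2 (-0.58 ± 0.17, adjusted p = 0.0371), which is altered in 4 of the 5 other lines, and Notch3 (-1.02 ± 0.28, adjusted p = 0.0318) were also called. Without array 3 Notch2 was -0.42 (adjusted p = 0.178) and Notch3 -0.58 (adjusted p = 0.255), and after cyclic loess their adjusted p was 0.111 and 0.0697. Jag1 ranged from 8.87 to 9.78 in the other lines, above all 3 floxed arrays, and fell by 0.84 ± 0.20 (adjusted p = 0.0151), with adjusted p = 0.0573 without array 3. Nrarp ranged from 7.05 to 9.26 and fell by 1.40 ± 0.29 (adjusted p = 0.0083), with 2 of the other lines carrying active Notch2. Hes1 differed by -0.16 ± 0.14 (adjusted p = 0.56). All of these were uncalled in the fit of these groups alone (adjusted p = 0.165 for Notch1, 0.113 for Jag1 and 0.127 for Nrarp).

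The largest rises against the 5 lines were liver genes present on array 2. Cyp4a14, a fatty acid hydroxylase of liver, read 2.60, 11.84 and 2.54 (3.11 ± 0.96, adjusted p = 0.0465), and the difference was 0.01 (adjusted p = 0.995) without array 2. Mtarc1, a mitochondrial reductase of liver, read 3.58, 10.04 and 4.71 (2.88 ± 0.71, adjusted p = 0.0178), and the difference was 0.92 (adjusted p = 0.461) without array 2. A1cf, which edits apolipoprotein B RNA in liver and intestine, read 4.21, 9.66 and 7.90 (2.66 ± 0.80, adjusted p = 0.0424), so that arrays 2 and 3 were both high and array 1 alone gave -0.39 (adjusted p = 0.941). Of the 22 genes called against pL2, Rsph3b (-1.26 ± 0.19, adjusted p = 0.00138), Ctbp2 (-0.46 ± 0.08, adjusted p = 0.0036) and Mir344d-2 (0.91 ± 0.16, adjusted p = 0.0036) are given here for their values on the same arrays. Gpr27 (-0.65 ± 0.22, adjusted p = 0.071), Wdr44 (-0.26 ± 0.10, adjusted p = 0.101) and Cdh5 (0.49 ± 0.24, adjusted p = 0.215) were not called against the 5 lines.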

How the data were processed

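Total RNA of whole junction tissue was hybridised to Affymetrix arrays, 1 per sample. The deposited values are log2 signals per probe set, made by the authors with RMA in Affymetrix Expression Console, per the submitters' processing notes (version not given in the sources used here). Of 34390 entries, 23521 carried 1 symbol in the platform annotation, 1814 several and 9055 none; the highest overall mean was kept per symbol (22180). One mean per group (16) was fitted to 48 arrays with limma 3.58.1 in R 4.3.3 (32 residual degrees of freedom), two-sided, with Benjamini-Hochberg adjustment over 15242 genes. The procedure was tested on simulated data in which each gene had the same spread in every group. That test therefore does not cover the wider spread of the Lgr5 Notch1 floxed group. Figures used matplotlib 3.10.9.

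Members, comparisons and 53 gene lists were chosen with earlier results of these data known. Named genes were 16 study genes, the 15 largest called rises and falls (8 in the other comparisons) without clone names, microRNAs and odorant receptors, and per list up to 4 called and 2 uncalled genes of smallest p. Members shown beyond the rule (among them Alb, Sis, Lct, Ces1c, Muc5ac, Krt14, Atp4b, Pecam1, S100a8, Adam10, Flg, Trp63, A1cf and the sex-linked genes) were chosen after their values were seen. Replicate numbers name arrays only. Alternatives are given in the closing section, and 2 were added after the data were seen: 2 marker means as covariates, and leaving out 2 arrays.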

Additional observations from a re-analysis of the deposited data

Results flagged for a closer look

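Lines that differ from Lgr5 Notch1 floxed mice in the receptor or in the driver were compared by testing the difference itself. Between Notch1 floxed and Notch2 floxed, both in Lgr5 cells, 23 genes differed at an adjusted p below 0.05. Between Notch1 floxed in Lgr5 cells and in Dclk cells, 412 differed. In both comparisons age and age at tamoxifen also differ between the lines. Hepatocyte, enterocyte and suprabasal squamous markers differed between the same arrays, and their part was not tested.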

How the results depend on the processing

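No paired analysis was possible because the labels give no replicate numbers that tie samples of different groups together. Against pL2 the 22 calls became 60 with no filter, 14 with a stricter filter, 0 in a fit of the compared groups alone, 87 with array weights, 38 with the title suffix as a covariate, 0 with age as a covariate, 38 without the 10 arrays with a hepatocyte or enterocyte mean of 8 or more (high arrays below), 1330 with pL2 from Freising as reference, 272 with hepatocyte and enterocyte means as covariates and 63 without Lgr5 Notch1 floxed arrays 2 and 3. Leaving out 1 array gave 1 to 480. Against Lgr5 Notch2 floxed the 23 calls became 0 (groups alone), 5 (weights), 14 (cyclic loess), 36 (sex-linked score), 204 (skeletal muscle mean), 10 (both means as covariates) and 35 (without both arrays), and 5 to 558 leaving out 1 array. Against Dclk Notch1 floxed the 412 became 262 (no filter), 2 (groups alone), 62 (loess), 114 (centred), 1 (age), 1229 (skeletal muscle), 35 (without high arrays) and 26 (without both arrays), and 0 to 654 leaving out 1 array. Against the 5 lines the 960 became 0 (groups alone), 1 (weights), 515 (loess), 9 (age), 65 (without high arrays), 374 (both means as covariates) and 60 (without both arrays), and 404 to 1411 leaving out 1 array. The cause was not tested.

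None of the 22 genes changed direction. Uncalled Notch and study genes did, against pL2. With Freising as reference Dll1 was -0.17, Hes1 -0.13, Hey1 -0.09, Lgr5 -0.38, Notch4 0.15 and Il1b 0.79. With the title suffix Dll1 was -0.16 and Dll4 -0.0012, with age Dll4 was -0.14, Lgr5 -0.05 and Rbpj 0.01, and with the skeletal muscle mean Dll1 was -0.05, Heyl -0.12 and Rbpj 0.11. With both means as covariates Dll1 was -0.09, Dll4 -0.03 and Rbpj 0.07. With weights Heyl was -0.01 and Rbpj 0.06; Rbpj was 0.13 with loess and 0.08 centred. Without the high arrays Heyl was -0.30 and Rbpj 0.24, and without both floxed arrays Heyl was -0.17, Lgr5 -0.19 and Rbpj 0.05. Against the 5 lines the latter gave A1cf -0.39 and Otc -0.07. Leaving out 1 array gave Dclk1 -0.01 to 0.41, Dll1 -0.11 to 0.17, Dll4 -0.07 to 0.23, Hes1 -0.05 to 0.29, Heyl -0.27 to 0.29, Lgr5 -0.23 to 0.41 and Rbpj -0.16 to 0.18.

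Without both arrays 1 floxed array is left, so its error is borrowed from the other groups. Low signals near the array medians (Amh, Mir7b, Astx5, Speer4b, Olfr452, Olfr617, Spopfm2) limit what can be read from those genes.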
